A study of Phyllostachys edulis with 34 samples.

Results

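The 89 genes described here were those of the moso bamboo (Phyllostachys edulis) leaf transcriptome that were at least 2-fold higher than in CK in 7 of the 8 treated groups of the study, ABA 24 h being the group not used. They were chosen by their measured values. For each gene the ratio R was computed as the log2 of the group's mean FPKM (fragments scaled for transcript length and sequencing depth) plus 1, over the mean FPKM plus 1 of the CK libraries of the same hour. A gene was kept when R was at least 1, a 2-fold higher value, in PEG 3 h, PEG 24 h, NaCl 3 h, NaCl 24 h, SA 3 h, SA 24 h and ABA 3 h. Of 59091 genes in the table, 91 met this rule, and 2 genes of lignin biosynthesis were set aside because the study lists them as its own genes of interest. The remaining 89 were all tested below, and the limit of 300 genes in the rule was not reached.

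Young leaves came from 30-day-old seedlings grown in Hoagland solution, and 34 libraries were made in 11 groups. The treatments were 25% PEG (polyethylene glycol, an osmoticum used to imitate drought), 200 mM NaCl, 1 mM SA (salicylic acid) and 1 µM ABA (abscisic acid), each sampled at 3 h and 24 h in 3 libraries. CK was taken to mean seedlings left untreated until the same hour, although the labels give only the abbreviation. It had 3 libraries at 3 h and at 24 h, and 4 libraries were labelled 0 h. All groups are seedlings of 1 species, and no genotype was contrasted. Libraries held between 28153302 and 51695158 counts. The gene numbers are not paired with names in the sources used here, so the genes are given by number, their functions are not stated, and the leaf could not be checked against its marker genes.

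In plants, osmotic stress and salt raise the level of ABA, which acts through its receptors and a kinase cascade to change the transcription of many genes, while NaCl adds the toxicity of the ions. SA is best known as the hormone of defence against pathogens, and its signalling runs through a different set of receptors. Responses to these cues are known to overlap in part, and genes answering to several of them are often called general stress genes. In whole leaves, more cells of a type and more RNA per cell cannot be told apart.

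One library stood apart before any result. The library labelled 0 h replicate 1 had a Spearman correlation of 0.881 to 0.883 with the other libraries labelled 0 h over 39392 genes, and of 0.972 to 0.973 with the libraries labelled ABA 24 h. The main values of the libraries labelled 0 h are therefore given with and without it. Whether libraries labelled 0 h and ABA 24 h carry each other's labels in part was not tested. If they do, the comparisons below that use these labels, also those with CK, are not of the conditions they name. The rule used neither the libraries labelled 0 h nor those labelled ABA 24 h, so the choice of the 89 genes did not depend on that library.

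The rule was passed by 0.231% of the 39392 genes that entered the tests, 91 genes with the 2 that were set aside. R of at least 1, which all 89 genes had by choice, was reached by 6.19% of genes tested under PEG and 7.15% under NaCl at 3 h, and by 8.02% under SA and 5.33% under ABA. At 24 h it was reached by 3.64% under PEG, 9.27% under NaCl and 6.61% under SA. The lowest R of a gene over the 7 groups had a median of 1.32 and a maximum of 2.72, and it was at least 2 (4-fold) in 8 genes. Just inside the threshold lay 5 genes with a lowest R of 1.0026 to 1.0162, and just outside it 5 genes with 0.9735 to 0.9876. These values, like all ratios to CK in the 7 groups, chose the genes and are a description with no test.

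The 89 genes together held a small part of the leaf transcriptome in CK and a larger one in each of the 7 treated groups. As a share of summed FPKM they took 1.03, 0.994 and 1.02% in the PEG 3 h libraries, 1.08, 0.902 and 1.07% in NaCl 3 h, 0.947, 0.944 and 0.941% in SA 3 h, and 0.477, 0.480 and 0.481% in ABA 3 h, against 0.0911, 0.0971 and 0.0939% in CK 3 h. At 24 h they took 0.638, 0.638 and 0.636% in PEG, 2.09, 1.98 and 2.03% in NaCl and 0.992, 1.01 and 1.06% in SA, against 0.107, 0.105 and 0.104% in CK 24 h. NaCl 24 h was the highest group in these libraries, with 2.03% ± 0.0571 (SD, n = 3), and ABA 3 h the lowest of the 7, with 0.479% ± 0.00166 (SD, n = 3). Without the most abundant of the 89 genes the mean share was 1.89% in NaCl 24 h and 0.444% in ABA 3 h, against 0.102% in CK 24 h and 0.0846% in CK 3 h.

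**Figure D1:**
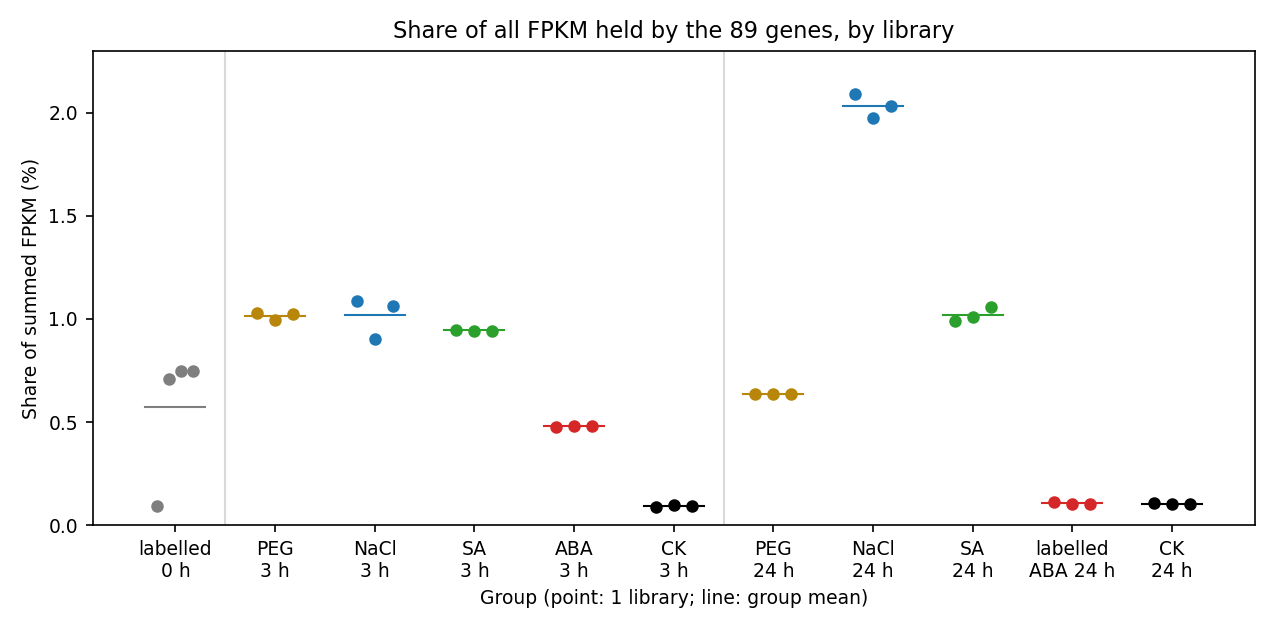
Share of summed FPKM held by the 89 genes (vertical axis, %) in each of the 34 libraries, by group; points are libraries and lines are group means. The 7 treated groups of the rule lie between 0.477 and 2.09%, above both CK groups, while the libraries labelled ABA 24 h and the library labelled 0 h replicate 1 lie at the level of CK.

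At 3 h the median level of the 89 genes was 27.3 FPKM under PEG, 27.8 FPKM under NaCl, 26.9 FPKM under SA and 16.9 FPKM under ABA, against 2.65 FPKM in CK 3 h. At 24 h it was 14.6 FPKM under PEG, 56.6 FPKM under NaCl and 25.6 FPKM under SA, against 3.24 FPKM in CK 24 h. The median over all genes tested was 3.35 FPKM in CK 3 h and 3.28 FPKM in CK 24 h. The rule used the CK values, and its pseudocount of 1 damps the ratios of low genes. Nothing is therefore read from the likeness of these medians. An average under 1 FPKM, which the rule does not allow in the 7 treated groups, was found for 18 of the 89 genes in CK 3 h and for 21 in CK 24 h, 14 of them in both. In NaCl 24 h, 30 of the 89 averaged at least 100 FPKM, against 0 in CK 24 h. In PEG 3 h, 17 did so, against 0 in CK 3 h. The rule kept genes that were higher under treatment than in CK, and shares over all genes tested are not given for these counts. Nothing is therefore read from them.

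The size of the ratio differed between treatments. The median R at 3 h was 2.54 under PEG, 2.51 under NaCl, 2.57 under SA and 1.95 under ABA. At 24 h it was 1.86 under PEG, 3.53 under NaCl and 2.28 under SA. On the scale of FPKM plus 1, which understates the change of low genes, these medians correspond to 3.63-fold in PEG 24 h and 11.6-fold in NaCl 24 h. Over all genes tested the median R lay between -0.24 in PEG 3 h and 0.00 in SA 24 h. R reached at least 3 (8-fold) in 61 of the 89 genes in NaCl 24 h, beside 1.06% of all genes tested, in 16 in PEG 24 h, beside 0.33%, and in 15 in ABA 3 h, beside 0.251%. Genes with R of 1 or more were kept by the rule, so nothing is read from these shares. Of the 89 genes, 42 had their highest R in NaCl 24 h. A further 17 had it in SA 3 h, 16 in PEG 3 h and 7 in NaCl 3 h, while 5 had it in SA 24 h, 2 in PEG 24 h and none in ABA 3 h. The lowest R, the one that decided whether a gene was kept, was in PEG 24 h for 27 genes and in ABA 3 h for 25. Shares over all genes tested are not given for these counts of highest and lowest R. Over all genes tested, R of at least 1 was also most frequent in NaCl 24 h, at 9.27%. These ratios chose the genes, so nothing particular to the 89 genes is read from the counts.

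**Figure D2:**
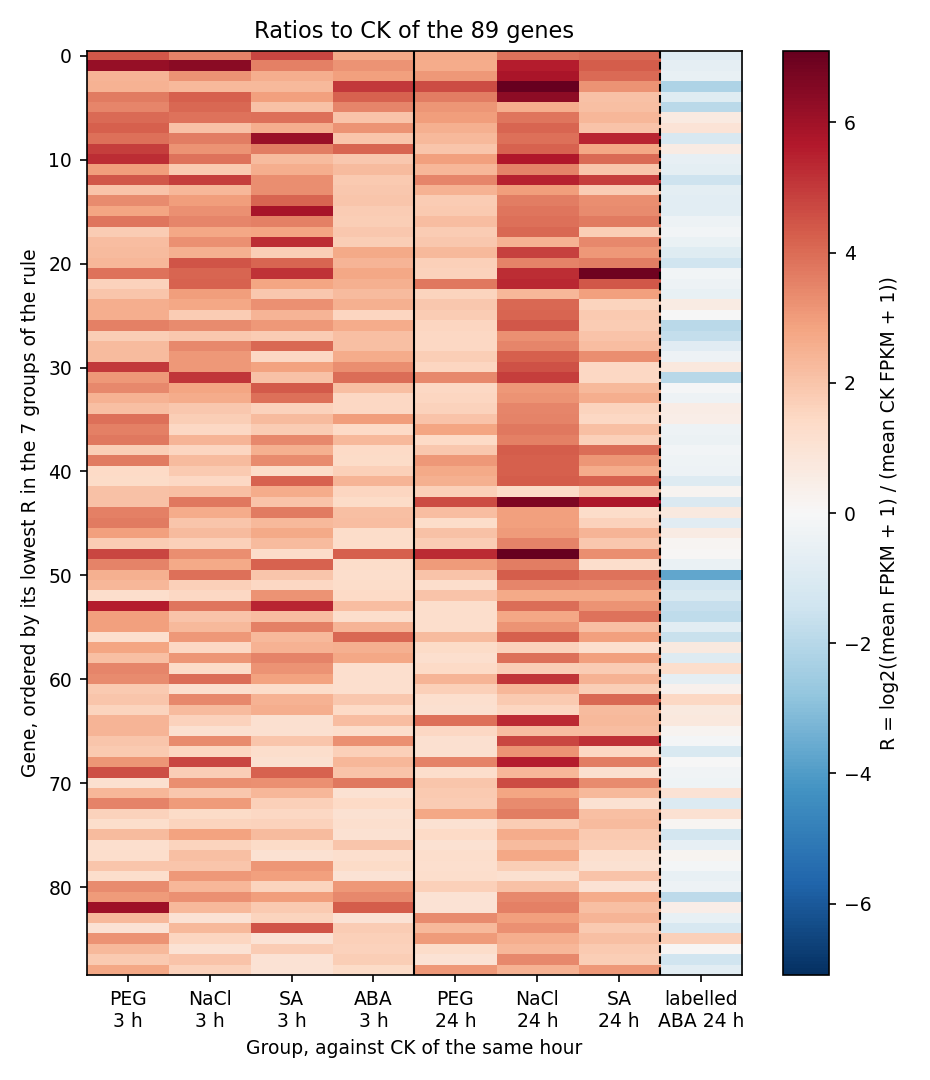
R of the 89 genes (rows, ordered by their lowest R in the 7 groups of the rule) in each treated group against CK of the same hour; red is higher than in CK and blue lower. NaCl 24 h is the darkest column, with a median of 3.53, and the column of the libraries labelled ABA 24 h, right of the dashed line and not used by the rule, has a median of -0.42.

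The distance between a gene's highest and lowest R over the 7 groups of the rule was at least 1.16. Its median was 2.48 and its maximum 5.80, and it was 3 or more in 27 genes. Noise alone gives any gene some distance, and no reference for this was computed. Shares over all genes tested are not given either, so nothing is read from the distances. The 2 times of an agent ranked the genes differently. In NaCl, R was higher at 24 h than at 3 h in 75 of the 89 genes, beside 47.2% of all genes tested, with a median difference of 0.95. In PEG the opposite held, as R was higher at 24 h in 23 genes, beside 60.5% of all genes tested, with a median difference of -0.71. In SA 40 genes were higher at 24 h, beside 64.8% of all genes tested, with a median difference of -0.28. All these ratios were used by the rule, and none of the differences was tested. Over the 89 genes, the Pearson correlation of R at 24 h with R at 3 h was 0.52 in NaCl, 0.29 in SA and 0.17 in PEG, with Spearman correlations of 0.52, 0.19 and 0.22 in the same order. These are descriptions over genes, which are not independent replicates, and all ratios of 1 hour share their CK libraries.

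Single libraries are described in the same way. In 83 of the 89 genes, all 3 libraries of each of the 7 groups lay above all 3 CK libraries of the same hour, a pattern held by 1.77% of all genes tested. Because the rule used these means, nothing is read from the 93.3% of genes without overlap. Between the CK groups these genes had a median log2 ratio of 0.05 for CK 24 h over CK 3 h. The ratio was 1 or more in 9 genes, beside 2.89% of all genes tested, and -1 or less in 2, beside 1.81%.

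The gene with the highest lowest ratio was PH02Gene28163. It had 74.1, 49.9 and 74.8 FPKM in PEG 3 h, 39.8, 29.2 and 38.3 FPKM in NaCl 3 h, 80.5, 86.7 and 80.9 FPKM in SA 3 h and 18.4, 20.5 and 20.5 FPKM in ABA 3 h, against 2.67, 1.99 and 1.83 FPKM in CK 3 h. At 24 h it had 34.1, 35.9 and 37.4 FPKM in PEG, 85.8, 74.6 and 81.7 FPKM in NaCl and 93.1, 86.7 and 91.1 FPKM in SA, against 4.97, 4.79 and 4.05 FPKM in CK 24 h. Every treated library of these groups lay above every CK library, and R ran between 2.72 in PEG 24 h and ABA 3 h and 4.73 in SA 3 h. Its mean level was highest in SA 24 h, at 90.3 ± 3.26 FPKM (SD, n = 3), beside 82.7 ± 3.45 FPKM (SD, n = 3) in SA 3 h. The lowest library of SA 24 h and the highest of SA 3 h were both at 86.7 FPKM. SA 3 h and NaCl 24 h, at 80.7 ± 5.70 FPKM (SD, n = 3), did not differ beyond their spread. The rule used these groups, and the differences were not tested.

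The gene with the highest mean level over the 7 groups was PH02Gene04576. It had 1347, 1139 and 1286 FPKM in PEG 3 h, 1979, 1481 and 1946 FPKM in NaCl 3 h, 601, 594 and 578 FPKM in SA 3 h and 212, 214 and 217 FPKM in ABA 3 h, against 59.1, 60.8 and 55.1 FPKM in CK 3 h. At 24 h it had 220.5, 217 and 215 FPKM in PEG, 927, 845 and 893 FPKM in NaCl and 592, 594 and 624 FPKM in SA, against 23.8, 16.5 and 16.8 FPKM in CK 24 h. The level of this gene was higher at 3 h than at 24 h in PEG and NaCl, unlike the sum of the 89 genes in NaCl. Its R was nevertheless higher in NaCl 24 h, at 5.47, than in NaCl 3 h, at 4.93. Its CK level was 19.05 ± 4.15 FPKM at 24 h and 58.3 ± 2.89 FPKM at 3 h (SD, n = 3 each).

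**Figure D3:**
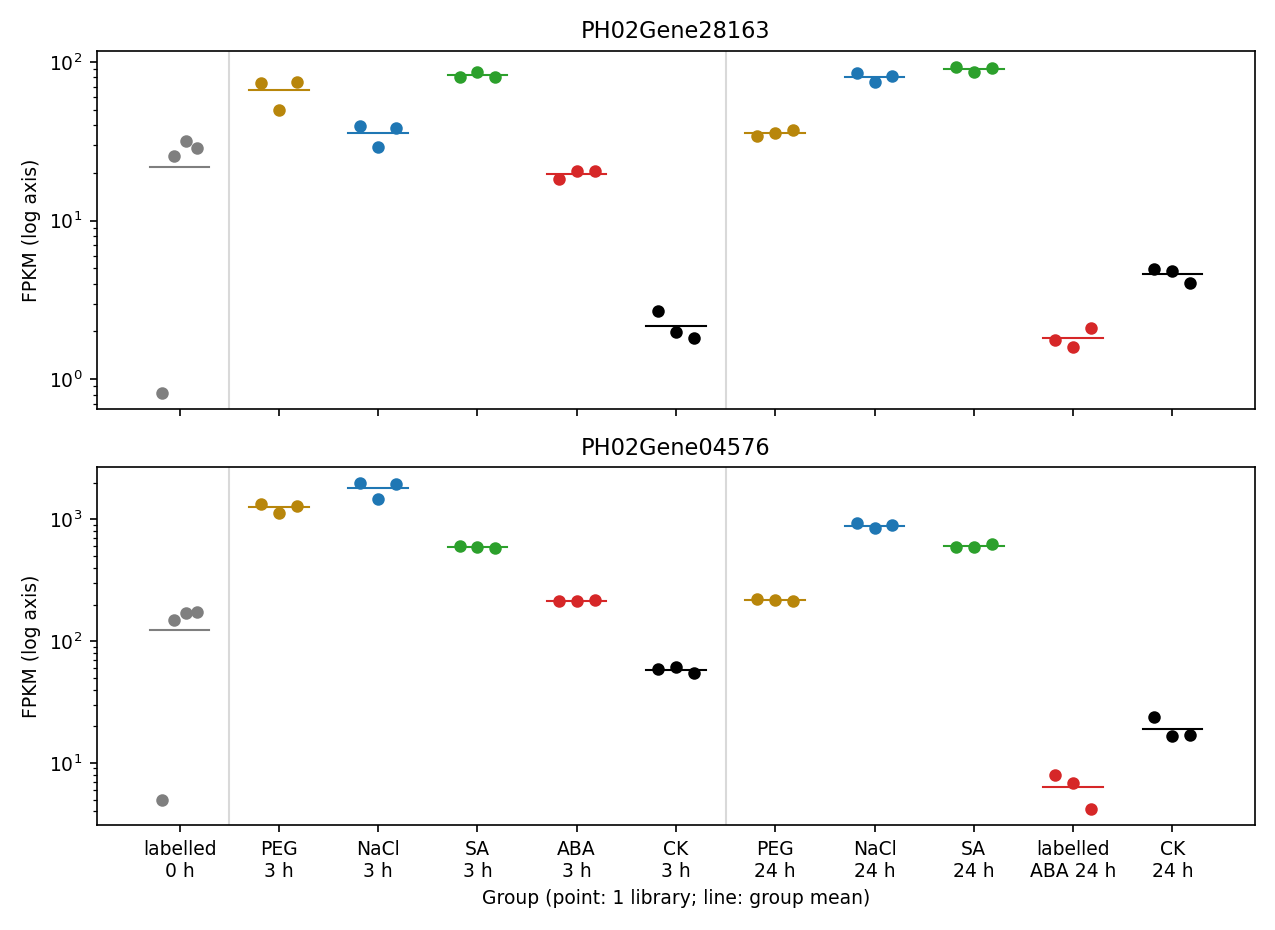
FPKM (log axis) of PH02Gene28163, above, and PH02Gene04576, below, in each library by group; points are libraries and lines are group means. In both genes the 3 libraries labelled ABA 24 h and the library labelled 0 h replicate 1 lie far below the other libraries labelled 0 h, and both CK groups lie below the 7 treated groups.

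The libraries labelled ABA 24 h, which the rule did not use, did not show the pattern of the 7 groups of the rule. Whether these libraries carry their own label was not tested, so their values are not read as the response to 24 h of ABA. The study itself reports PheCAD3, a cinnamyl alcohol dehydrogenase gene set aside here, as strongly raised after 24 h of ABA. The 89 genes held 0.114, 0.102 and 0.104% of summed FPKM there, against 0.107, 0.105 and 0.104% in CK 24 h, so both groups overlapped. The median level was 1.96 FPKM in the libraries labelled ABA 24 h, against 3.24 FPKM in CK 24 h, and the median R was -0.42, against -0.17 over all genes tested. R was at least 1 in 5 of the 89 genes (5.62%), beside 2.38% of all genes tested, and -1 or less in 20 genes (22.5%), beside 8.92% of all genes tested. The highest R was 1.68 and the lowest -3.70. Since this ratio shares its CK 24 h libraries with the rule, it is given with no test.

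The libraries labelled 0 h fell into a single low one and 3 high ones. In replicate 1 the 89 genes held 0.0954% of summed FPKM, and in replicates 2, 3 and 4 they held 0.711, 0.746 and 0.749%. Replicates 2 to 4 thus lay above PEG 24 h at 0.637% ± 0.000861 (SD, n = 3) and above both CK groups, and replicate 1 lay among the CK libraries. Without replicate 1, the median log2 ratio of the libraries labelled 0 h to CK 3 h was 2.01, with 70 of the 89 genes at 1 or more, beside 7.04% of all genes tested. With replicate 1 it was 1.70, with 63 genes, beside 5.93%. To CK 24 h the median was 1.88 without replicate 1, with 69 genes at 1 or more, beside 5.17% of all genes, and 1.57 with it, with 65 genes, beside 3.92%. These ratios share with the rule the CK libraries in which the 89 genes were chosen to be lower, so they are a description. In 87 of the 89 genes (97.8%) replicate 1 lay below the other 3 libraries, beside 53% of all genes tested, and in 80 (89.9%) it was under 50% of the lowest of them, beside 24.5%. In 45 genes (50.6%) it lay within the range of the libraries labelled ABA 24 h, about as often as among all genes tested, at 49.5%.

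The only comparison independent of the rule sets the libraries labelled 0 h against those labelled ABA 24 h, neither of which had a part in choosing the genes. Of the 89 genes, 72 were higher in the libraries labelled 0 h, with at least a 2-fold difference and an edgeR adjusted p under 0.05, and 0 were lower. Over all genes tested 13.2% were higher and 5.63% lower. The median log2 fold change of the 89 genes was 2.81, with quartiles of 1.27 and 4.10, beside a median of 0.04 and quartiles of -0.47 and 0.74 over all genes. At an unadjusted p under 0.05, 82 of the 89 were higher and 1 was lower. DESeq2 also gave 72 higher and 0 lower, beside 5529 higher and 2266 lower of the 39392 genes tested, and 82 and 1 unadjusted. Without replicate 1 the unadjusted counts in edgeR were 84 and 1, and DESeq2 was run only with it. Shares over all genes tested are not given for the unadjusted counts, so nothing is read from them. For 4 genes at 0 counts in every library labelled ABA 24 h the fold change is only a lower bound, at least 11.2-fold to 33.5-fold higher against a floor of 3 counts per library, and the median was also 2.81 with these genes at their bounds.

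This count rests on the spread assigned to the libraries labelled 0 h. Without replicate 1, 75 of the 89 were higher and 0 lower, beside 16.8% and 12.6% of all genes, with a median log2 fold change of 3.19. In a fit of only these 2 groups, 0 of the 87 genes then tested were higher, as were 0% of all genes. An unadjusted p under 0.05 with a higher level was found in 71 of the 87, and the share of all genes is not given for it. The same fit without replicate 1, chosen after seeing the data, gave 75 of 87, beside 18.3% of all genes. In single libraries, replicates 2 to 4 labelled 0 h all lay above the 3 libraries labelled ABA 24 h in 85 of the 89 genes (95.5%), beside 43.3% of all genes tested. With replicate 1 counted in, this held for 11 genes (12.4%), beside 12.3% of all genes tested.

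**Figure D4:**
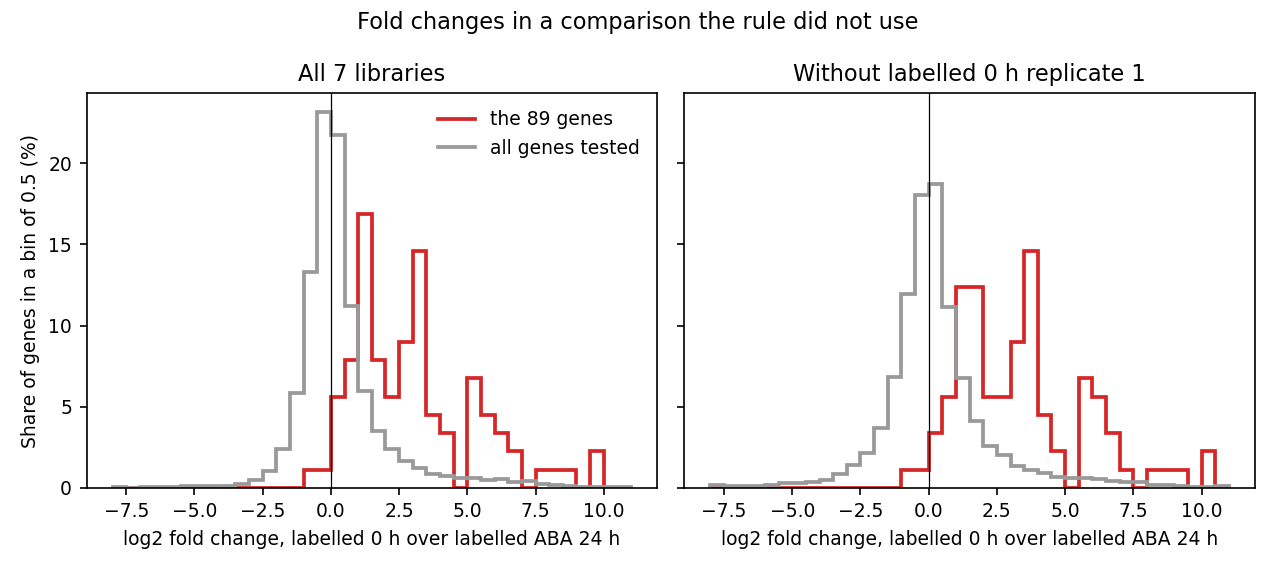
Distribution of the edgeR log2 fold change of the libraries labelled 0 h over those labelled ABA 24 h (horizontal axis) as a share of genes in bins of 0.5 (vertical axis, %), for the 89 genes in red and all genes tested in grey, with all 7 libraries on the left and without the library labelled 0 h replicate 1 on the right. The 89 genes centre on 2.81 and 3.19 and all genes on 0.04 in both.

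PH02Gene28163 had 0.821, 25.7, 31.9 and 28.7 FPKM in the libraries labelled 0 h, against 1.78, 1.60 and 2.10 FPKM in those labelled ABA 24 h. Replicates 2 to 4 labelled 0 h were thus far above, and replicate 1 was below all 3 libraries labelled ABA 24 h. The log2 fold change was 3.27 (SE 0.53, edgeR adjusted p = 3.00e-05), and 3.67 (SE 0.15, edgeR adjusted p = 4.02e-18) without replicate 1. PH02Gene04576 had 4.97, 149, 170 and 172 FPKM in the libraries labelled 0 h, against 7.93, 6.81 and 4.18 FPKM in those labelled ABA 24 h. Its log2 fold change was 4.00 (SE 0.55, edgeR adjusted p = 5.09e-06), and 4.39 (SE 0.16, edgeR adjusted p = 1.02e-19) without replicate 1. In the fit of only the 2 groups neither passed, with edgeR adjusted p of 0.105 for PH02Gene28163 and 0.0978 for PH02Gene04576.

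Only 2 of the 89 genes had a negative log2 fold change in this comparison, and both were chosen for mention after their values were seen. PH02Gene17915 had 0.594, 0.908, 0.598 and 1.16 FPKM in the libraries labelled 0 h, against 0.801, 1.22 and 0.449 FPKM in those labelled ABA 24 h, so the groups overlapped. Its log2 fold change was -0.26 (SE 0.26, edgeR adjusted p = 0.459), and -0.20 (SE 0.32, edgeR adjusted p = 0.624) without replicate 1. Under treatment the same gene was much higher than in CK, with 274 ± 9.29 FPKM in PEG 3 h and 243 ± 4.54 FPKM in SA 3 h, against 4.82 ± 1.36 FPKM in CK 3 h (SD, n = 3 each). PH02Gene04136 had 12.8, 10.7, 12.5 and 9.76 FPKM in the libraries labelled 0 h, against 14.6, 13.9 and 13.4 FPKM in those labelled ABA 24 h. These groups did not overlap, but the log2 fold change of -0.50 (SE 0.15, edgeR adjusted p = 0.00926), and of -0.65 (SE 0.15, edgeR adjusted p = 3.77e-04) without replicate 1, was under the 2-fold threshold.

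PH02Gene04136 also had a neighbour in number among the 89 genes, the gene numbered 1 before it. Both were high in NaCl 24 h, where PH02Gene04136 averaged 206 FPKM and the preceding gene 181 FPKM, and both averaged about the same in the libraries labelled ABA 24 h, at 13.97 and 14.3 FPKM. In the libraries labelled 0 h, however, the preceding gene averaged 73.6 FPKM and PH02Gene04136 11.4 FPKM, and the preceding gene had a log2 fold change of 2.08 (edgeR adjusted p = 6.38e-05), and of 2.39 (edgeR adjusted p = 1.93e-09) without replicate 1. If the numbering follows the genome, these are adjacent genes, which was not checked here. Whether reads were shared between them as near copies was not tested. The 89 genes held 2 such pairs of consecutive numbers.

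How strongly a gene responded to a treatment was compared with its difference between the libraries labelled 0 h, without replicate 1, and those labelled ABA 24 h, since these comparisons share no library. Over the 89 genes the Pearson correlation was 0.58 for R in PEG 24 h, 0.40 for NaCl 24 h and 0.33 for SA 24 h. It was 0.16 for ABA 3 h, 0.13 for NaCl 3 h, -0.01 for PEG 3 h and -0.04 for SA 3 h. The Spearman correlations were 0.49, 0.33 and 0.28 for PEG, NaCl and SA at 24 h, and between -0.04 and 0.14 for the groups at 3 h. Over all genes tested the Pearson correlation was also higher at 24 h than at 3 h, at 0.39 for PEG, 0.46 for NaCl and 0.43 for SA. At 3 h it was 0.14, 0.32 and 0.16 in the same order, and 0.20 for ABA. The value of the 89 genes lay below that of all genes in every group except PEG 24 h. Genes are the points here and are not replicates, so these values are a description with no p. With replicate 1 included the Pearson correlations of the 89 genes were 0.59 for PEG 24 h, 0.40 for NaCl 24 h, 0.33 for SA 24 h and between -0.03 and 0.16 for the groups at 3 h.

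**Figure D5:**
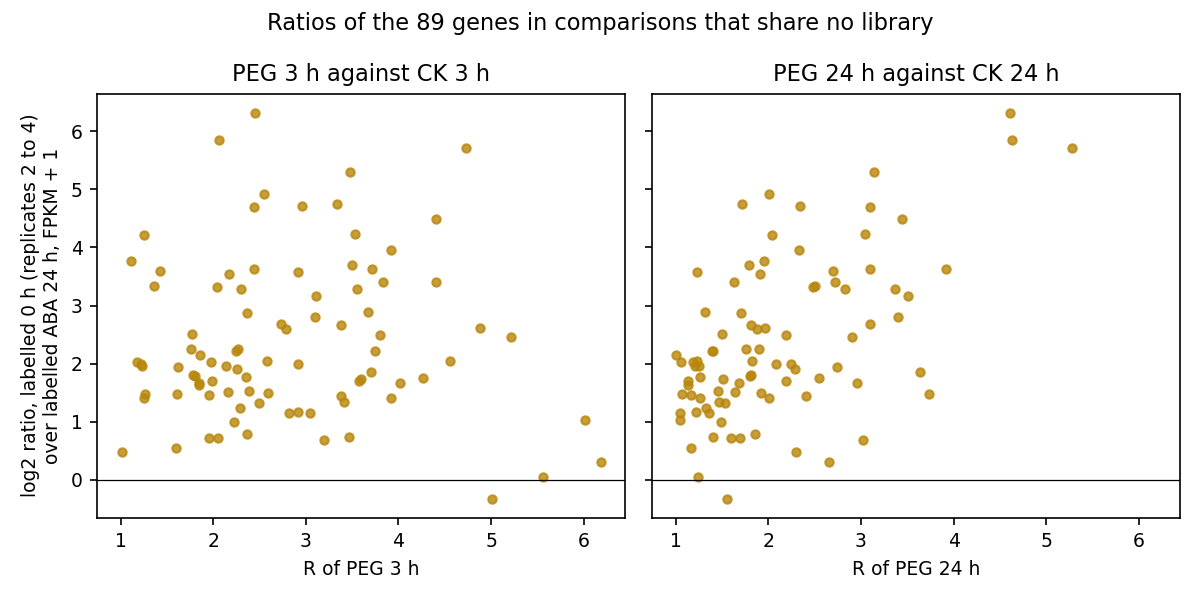
Log2 ratio of the libraries labelled 0 h (replicates 2 to 4) over those labelled ABA 24 h, on FPKM plus 1 (vertical axis), against R in PEG 3 h on the left and PEG 24 h on the right (horizontal axes); points are the 89 genes. The Pearson correlation is -0.01 on the left and 0.58 on the right. PEG 24 h is the only group in which the 89 genes had a higher correlation than all genes tested.

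Length enters the rule through FPKM and its pseudocount of 1, so the lengths of the 89 genes are a description. The gene length implied by the ratio of counts to FPKM had a median of 1365 bases, with quartiles of 1058 and 1863, beside 1751 bases with quartiles of 1162 and 2465 over the 33711 genes tested with enough counts, at least 50. Genes that carry a newGene number in the table made up 10 of the 89 (11.2%), beside 15.2% of all genes tested. The other 79 carry PH02Gene numbers. In CK the 89 genes had a median of 148.5 counts per library and a lowest mean of 9.83 counts for a single gene, and 2 of them were at 0 counts in at least 1 CK library.

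Of the lignin pathway, which builds the phenolic polymer of woody cell walls from phenylalanine, 159 genes of 11 enzyme families were listed by the study and present in the table. At 3 h, R was at least 1 in 16 of them under PEG, beside 6.19% of all genes tested. It was so in 26 under NaCl, beside 7.15%, in 13 under SA, beside 8.02%, and in 24 under ABA, beside 5.33%. At 24 h the counts were 7 under PEG, beside 3.64%, 22 under NaCl, beside 9.27%, and 21 under SA, beside 6.61%. The full rule was met by 2 of the 159, beside 0.231% of all genes tested. None of these counts was tested against those shares. The first was PH02Gene44264, a C4H gene encoding cinnamate 4-hydroxylase, an early enzyme of the pathway, with R between 1.42 in PEG 3 h and 3.39 in SA 3 h. The second was PheCAD3, a gene of cinnamyl alcohol dehydrogenase, which makes the alcohols that are joined into lignin, with R between 2.19 in PEG 24 h and ABA 3 h and 7.39 in SA 24 h. All others, among them all 14 of PAL, the first enzyme, did not reach R of 1 in each of the 7 groups.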

How the data were processed

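RNA sequencing of moso bamboo seedling leaves gave 34 libraries in 11 groups, taken from the labels. The authors deposited raw read counts per gene, without normalization, and FPKM values that they had computed per gene and library. The submitters' processing notes name HISAT2 and DESeq2. For the counter, genome build and annotation nothing is given in the sources used here, and the handling of reads that match several genes is unknown.

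The rule used mean FPKM with a pseudocount of 1. Its members, the gene lists and the tests were chosen with earlier results of these data known. The counts were filtered with filterByExpr (39392 of 59091 genes), normalized by TMM and fitted with edgeR 4.0.16 in R 4.3.3, as 1 quasi-likelihood model of all 11 groups. A gene passed at a Benjamini-Hochberg adjusted p under 0.05 over all genes tested and at least 2-fold. Standard errors are approximate, from dividing the log2 fold change by the root of the F statistic. DESeq2 1.42.0 was a second tool. Python 3.11.15, numpy 2.4.6, pandas 2.3.3 and matplotlib 3.10.9 served for tables and plots.

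The study gives 3 biological replicates, and 4 libraries were labelled 0 h. In the main fit, p-values rest on a spread pooled within all 11 groups of 34 libraries, not only within the 2 groups compared. Of 36 replicate pairs, 0 were identical, and their chi-square per degree of freedom was 5.72 to 298. Counting floors of 3 counts cover counting error only. On simulated counts for this comparison, 200 of 36838 genes were changed 4-fold, with no simulated library set apart. There edgeR recovered 199 (99.5%) with 4 false calls and DESeq2 199 with 8. Apart from the change, each simulated gene had the same level in every group, and all genes had the same spread. Genes of low counts were not among those changed. The recovery therefore does not carry over to the real libraries labelled 0 h and ABA 24 h. Genes were named by a rule: the highest lowest R, the highest mean FPKM in the 7 groups, and up to 2 genes lower past the threshold, of which there were none. A functional annotation in the supplement was not used, because its gene numbers for the 14 PheCAD genes name other proteins. Alternatives were other pseudocounts, TMM-normalized CPM, a 4-fold minimum, no filter, DESeq2's size factors, DESeq2, only the groups compared, a replicate block, and each library left out. Chosen after seeing the data were the fit of 2 groups without the library labelled 0 h replicate 1, the levels without that library or without the most abundant gene, and the bounds for genes at 0.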

Additional observations from a re-analysis of the deposited data

Results flagged for a closer look

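Among the 4 libraries labelled 0 h, Dixon's test set replicate 1 apart for the share of summed FPKM held by the 89 genes, with 0.0954% against 0.711 to 0.749%. It was also set apart for the level of PH02Gene04576, with 4.97 FPKM against 149 to 172 FPKM. Chance alone would set about 5% of such groups apart. The same library was low by this test in 41 of the 89 genes (46.1%), beside 10.9% of all genes tested. The 5% covers any of the 4 libraries on either side, so it is not the chance share for these counts of replicate 1 alone.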

How the results depend on the processing

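The rule gave 224 genes with a pseudocount of 0.1 FPKM, among them all 89, 149 genes on TMM-normalized CPM, of which 87 were shared, and 8 genes with a 4-fold minimum. With each library used by the rule left out in turn it gave 87 to 93 genes, among them 84 to 89 of the original 89. The count of the 89 genes that were higher in the libraries labelled 0 h than in those labelled ABA 24 h was 72, and 67 to 75 with each library left out. It was 0 with only the 2 groups in the fit, and 121 of 149 for the genes chosen on CPM. The median log2 fold change was 1.69 on FPKM with a pseudocount of 1, where low genes are damped by construction. Over all genes, 5192 were higher and 2218 lower. With only the 2 groups in the fit these were 0 and 19, while 5023 were lower in that fit without the library labelled 0 h replicate 1. With each library left out the number lower was 1350 to 4968, the highest without replicate 1 labelled 0 h. The log2 fold changes of PH02Gene28163 and PH02Gene04576 were 3.28 and 4.00 with only the 2 groups, where neither passed. With the replicate number as a block (replicate block), 67 of the 89 were higher, with a median of 2.63, and 4211 genes were higher and 1520 lower over all genes. Deviations of same-numbered libraries labelled 0 h and ABA 24 h had correlations of -0.041, -0.0070 and -0.021. The other groups were not checked. Since replicate 1 weighs on the deviations within the libraries labelled 0 h, this check cannot decide whether the numbers pair the libraries. No gene of the 89 was lower under any of the 13 alternatives run for that count. The limit of 300 genes was not reached, so removing it changed nothing.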
